A study of Mus musculus with 4 samples.

Results

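The Slc25 mitochondrial carriers were compared between livers of starved and control mice. Members were taken by name: every probe set whose annotation gave exactly 1 gene symbol starting with Slc25a, and, where a gene had several, the 1 with the highest average on the 4 arrays. This gave 33 carriers from 65 probe sets, of 12393 genes measured by the same rule. The array was an Affymetrix array with 22690 probe sets, on which a probe set is a group of short probes read as 1 transcript signal. Liver total RNA came from 4 wild-type mice on a C57/BL6 background, 1 month old: 2 controls and 2 mice starved for 24 h. Titles call the arrays of a group biological replicates, and each array stands for 1 mouse. A description field speaks instead of injected mice for the starved group and of not-injected mice for the controls, and what was injected is not stated. The sources used here do not give sex, housing or time of day.

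Carriers of this family are small proteins of the inner mitochondrial membrane, built from a repeated unit of membrane-spanning helices. They exchange metabolites, nucleotides and cofactors between cytosol and matrix, so that oxidation, gluconeogenesis and urea synthesis can draw on both compartments. A few members lie elsewhere, in the peroxisome or in the outer mitochondrial membrane. In fasting liver, fatty acids enter mitochondria as acylcarnitines, and carbon and nitrogen leave as malate, aspartate and citrulline.

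Promoter sequence was read to show which letters of known elements stand next to the starts of the carriers. Some windows are printed below as examples. RefSeq promoters of the build GRCm38.p6 were matched to 26 of the 33 carriers by gene identifier, with 35 annotated starts in all, since some genes have several. Slc25a2, Slc25a26, Slc25a35, Slc25a37, Slc25a44, Slc25a46 and Slc25a51 were not matched. Each window holds the 250 bases before a start, printed 5′ to 3′ on the strand of the gene. Capitals mark matches, on either strand, to any of 7 motifs that were searched. These were the PPAR direct repeat (AGGTCA followed, 1 base on, by AGGTCA again), the cAMP response element TGACGTCA, the NRF1 site (GCGC, any base, TGCGC), the E-box CACGTG, the forkhead site TGTTTAC, the sterol element TCACNCCAC and the CCAAT box (ATTGG on the other strand). The carnitine carrier Slc25a20, which differed most between the groups in the upward direction, has its window at chr9:108661886-108662135 on the + strand. The ATP-Mg carrier Slc25a25 differed most in the downward direction, and of its 3 starts the window shown, at chr2:32424067-32424316 on the - strand, is the 1 with a cAMP response element. The nucleotide carriers Slc25a33, at chr4:149774268-149774517 on the - strand, and Slc25a36, at chr9:97111042-97111291 on the - strand, carry the same kind of cargo.
Slc25a20: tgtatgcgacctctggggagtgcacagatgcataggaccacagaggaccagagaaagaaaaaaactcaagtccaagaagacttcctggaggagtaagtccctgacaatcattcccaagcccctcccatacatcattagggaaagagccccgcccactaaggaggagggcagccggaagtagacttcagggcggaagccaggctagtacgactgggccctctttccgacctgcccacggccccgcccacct
Slc25a25: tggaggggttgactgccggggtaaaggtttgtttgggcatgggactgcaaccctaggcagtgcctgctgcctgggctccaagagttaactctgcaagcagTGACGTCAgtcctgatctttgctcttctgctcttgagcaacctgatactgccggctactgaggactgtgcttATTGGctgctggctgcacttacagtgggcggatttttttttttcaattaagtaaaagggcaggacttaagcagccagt
Slc25a33: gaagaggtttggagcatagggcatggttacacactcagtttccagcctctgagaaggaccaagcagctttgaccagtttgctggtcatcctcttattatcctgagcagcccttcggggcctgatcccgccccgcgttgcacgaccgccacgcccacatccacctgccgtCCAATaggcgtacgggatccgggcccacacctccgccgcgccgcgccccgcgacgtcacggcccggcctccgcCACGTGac
Slc25a36: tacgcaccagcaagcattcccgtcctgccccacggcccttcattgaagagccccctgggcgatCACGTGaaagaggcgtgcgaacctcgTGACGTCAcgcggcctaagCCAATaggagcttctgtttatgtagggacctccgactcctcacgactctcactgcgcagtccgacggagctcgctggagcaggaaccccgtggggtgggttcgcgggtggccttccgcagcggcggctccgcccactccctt

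No searched motif stands in the Slc25a20 window, nor in that of Slc25a10, which is not printed. The cAMP response element, the site of CREB, stood in 2 of the 35 carrier windows (5.71%) and in 1.55% of all 32851 windows. Its carriers were Slc25a25, at 150 bases before the start, and Slc25a36, at 161 bases. In starved liver the first of these was lower and the second higher, so the carriers with this match did not share a direction. The E-box stood in 6 carrier windows (17.1%, against 6.02% of all), of Slc25a13, Slc25a14, Slc25a15, Slc25a33 and Slc25a36, where Slc25a14 counts with 2 overlapping windows. In Slc25a33 it lies 8 bases before the start. The CCAAT box stood in 18 carrier windows of 15 genes (51.4%, against 33.8% of all). The NRF1 site stood in 1 window, of Slc25a3 (2.86%, against 3.74%). The PPAR direct repeat, the forkhead site and the sterol element had 0 matches among the carriers, against 0.0335%, 3.17% and 1.05% of all windows. These matches describe letters in a short window. They show neither binding nor its absence.

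Across the family 20 of the 33 carriers had a higher and 13 a lower mean in starved liver. The signals are log2 values made with RMA, and each change below is a difference on that scale, positive where starved liver was higher. Changes ran from -0.85 to 0.94, with a median of 0.11, against a median of 0.00 over all genes. None of the 33 passed the test in limma (lmFit and eBayes, two-sided, Benjamini-Hochberg adjustment over all genes, threshold 0.05), where 8 of 12393 genes did (0.0646%). The lowest adjusted p of a carrier was 0.123 in limma, for Slc25a20. At an unadjusted p under 0.05 in limma there were 7 carriers (21.2%), against 11.3% of all genes. Of these, 4 were higher (Slc25a20, Slc25a33, Slc25a10 and Slc25a28; 5.25% of all genes) and 3 lower (Slc25a25, Slc25a23 and Slc25a44; 6.02% of all genes). That count of 7 rose without control 1 and fell without control 2, starved 1 or starved 2. The share of all genes in those fits is not given here. In 25 of the 33 carriers, leaving out 1 array moved the change by over 1.5 times or turned its sign. In 20 carriers (60.6%) the 2 starved arrays lay both above or both below the control arrays, against 42.2% of all genes. They were above in 14 (21.4% of all genes) and below in 6 (20.9% of all genes). With 2 arrays per group a permutation test cannot give a p below 0.333, so none was used. Signals of different probe sets are not on a common scale, and levels of different carriers are therefore not ranked.

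**Figure D1:**
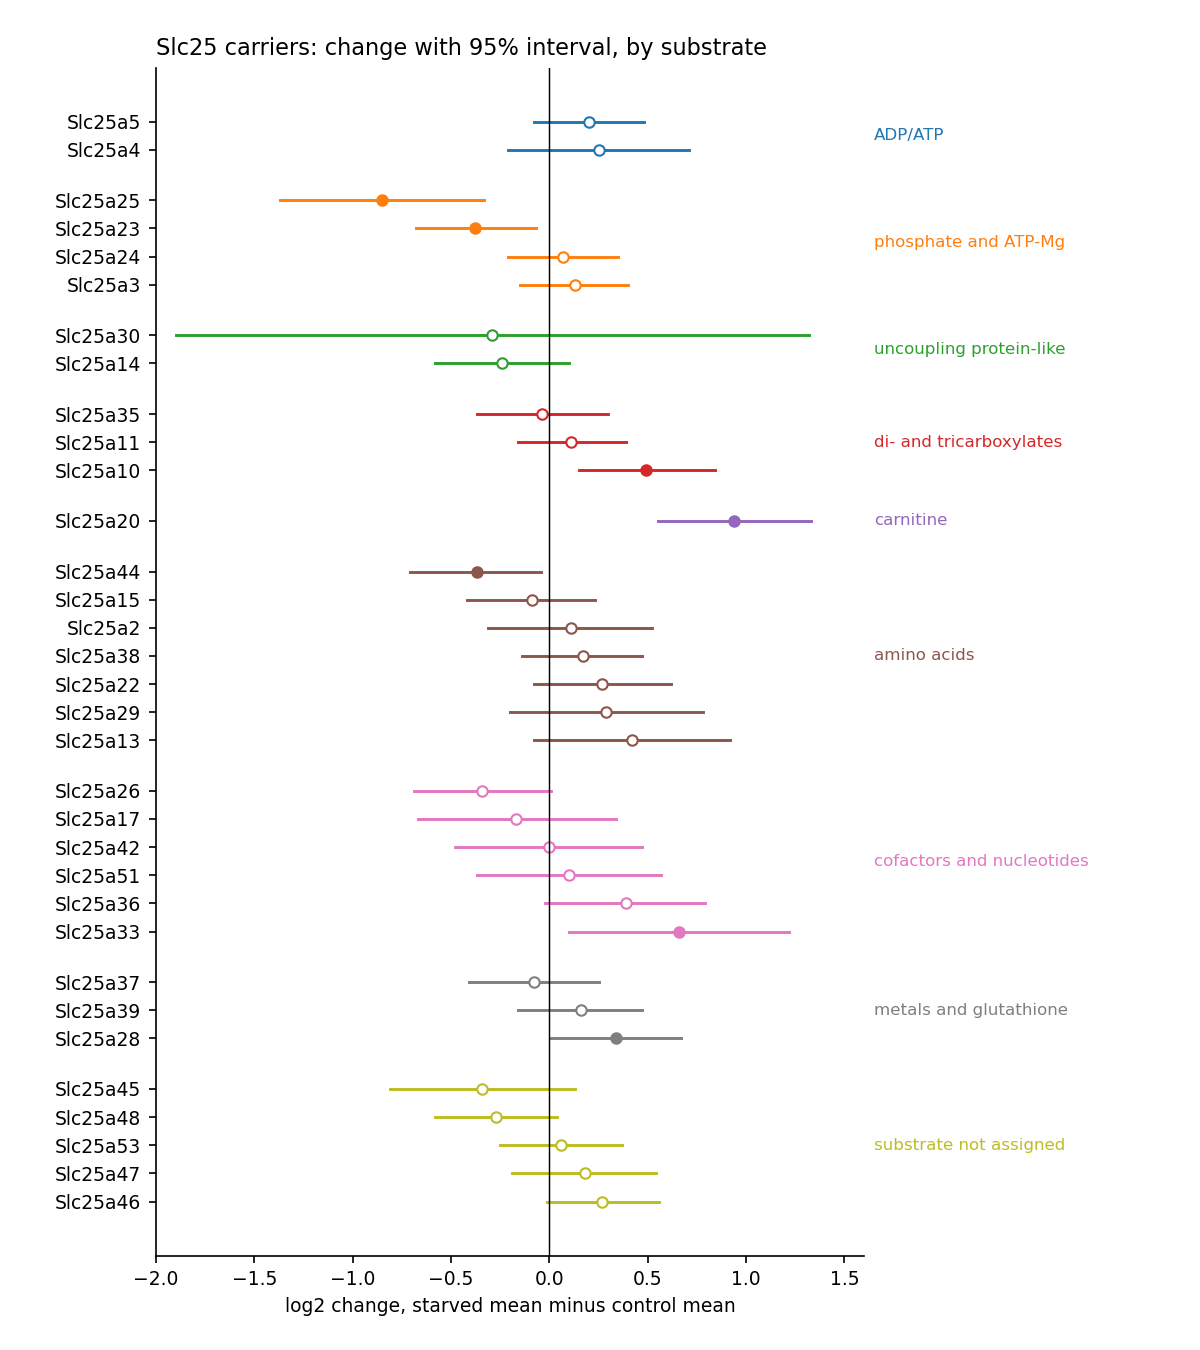
Log2 change (starved mean minus control mean, horizontal axis) of each of the 33 carriers, grouped by transported substrate, with 95% intervals from limma; filled points have an unadjusted p under 0.05. Slc25a20 at 0.94 and Slc25a25 at -0.85 lie farthest from 0, and the interval of Slc25a30, from -1.90 to 1.32, is the widest.

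Hepatocyte genes marked all 4 arrays as liver: the summed signal of 8 hepatocyte markers was 17.70 and 17.79 (log2) on the control arrays and 17.74 and 17.82 on the starved arrays. Of 10 lists of markers for other cells, the sums of the cholangiocyte list (7.62 to 7.63 in controls, 7.74 to 8.01 in starved) and of the adipocyte list (7.19 to 7.31 against 7.43 to 7.47) were higher on both starved arrays, with 4 of 5 and 5 of 7 of their genes measured. Of the cholangiocyte genes, only Sox9 (change 0.48) was higher on both starved arrays than on either control array. The adipocyte markers were low, with 4 of 5 below the lower quartile of every array. The pancreas list (4 of 6 measured) was lower (10.79 to 10.86 against 9.67 to 9.95), through 1 of its 4 genes, the elastase Cela1. For actin, the 3′ control probe set exceeded the 5′ control probe set, a measure of RNA length. The gap was 1.76 and 1.79 in controls and 1.85 and 2.06 in starved livers, larger on both starved arrays. The same gap for Gapdh was 0.54 and 0.65 in controls and 0.48 and 0.86 in starved livers, with overlap. The sums of the other 7 lists overlapped between the groups, although a sum follows its most abundant genes. In some of them the controls lay far apart. Sinusoidal endothelium gave 11.99 and 10.96 in controls against 11.65 and 11.32. Stellate cells and fibroblasts gave 12.42 and 11.54 against 12.03 and 12.09, and neutrophils 8.24 and 9.32 against 8.21 and 8.59. Of the 46 genes measured in these 7 lists, 6 had an unadjusted p under 0.05 (13.0%, against 11.3% of all genes, limma). Lyve1, of sinusoidal endothelium, differed by 1.81 and Col3a1, of stellate cells and fibroblasts, by -1.53 (limma adjusted p = 0.108 and 0.117), both more than Cela1 at -1.31. The other markers of these lists had smaller changes. They ran from -0.33 (Stab2) to 0.021 (Fcgr2b) for sinusoidal endothelium and from -0.45 (Lrat) to 0.31 (Dcn) for stellate cells and fibroblasts. Among the latter, Pdgfrb read 7.04 and 6.88 against 6.64 and 6.56, a change of -0.36 without overlap. Col1a1, at low signal, was also lower on both starved arrays, whereas Des, Reln and Dcn had higher means. The part of these values in the carrier results was not tested. In whole liver, fewer cells of a type and less RNA per cell cannot be told apart.

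Slc25a20 is the carnitine-acylcarnitine translocase, which brings acylcarnitines into the matrix and returns free carnitine. It read 11.81 and 11.43 in the controls and 12.55 and 12.57 in the starved livers. The starved arrays nearly coincided and lay above both controls. Group means were 11.62 ± 0.27 and 12.56 ± 0.01 (SD, n = 2 each), so starved liver was 1.92-fold higher, a difference of 0.94 ± 0.16 (SE) with a limma adjusted p = 0.123. Its other probe set, of the _s_at type, read 10.13 and 9.75 against 10.95 and 11.03, a change of 1.05. The change stayed between 0.75 and 1.13 when any 1 array was left out.

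The enzymes on both sides of this carrier also read higher in starved liver. Cpt1a, which makes acylcarnitines at the outer membrane, read 11.59 and 11.55 against 12.35 and 12.55. Cpt2, which turns them back into acyl-CoA in the matrix, read 10.91 and 10.53 against 11.30 and 11.43. Crat, which forms acetylcarnitine, read 6.81 and 6.76 against 8.36 and 8.03. All 3 were higher on both starved arrays, with changes of 0.87, 0.64 and 1.41 and limma adjusted p = 0.101, 0.255 and 0.0679. As the mean of its probe sets, the change of Cpt1a was 0.63. Crat was past the limma test in 2 of 13 alternatives, with adjusted p = 0.0487 to 0.27 over all of them, and its change was 0.75 as the mean of its probe sets.

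Carriers of ATP-Mg exchange it for phosphate and so set the adenine nucleotide pool of the matrix. Slc25a25, a calcium-regulated member, read 8.80 and 9.15 in the controls and 7.88 and 8.38 in the starved livers. Both starved arrays lay below both controls, but the gap between the starved arrays, 0.50, was wide. Starved liver was 1.80-fold lower, at -0.85 ± 0.21 (SE) and a limma adjusted p = 0.253. Its relative Slc25a23 read 9.57 and 9.72 against 9.32 and 9.21, a change of -0.38 ± 0.12 (limma adjusted p = 0.356). Slc25a24, the other measured paralogue, read 3.63 and 3.61 against 3.65 and 3.73, below the lower quartile of every array (5.08 to 5.13). The ATP-Mg carriers measured above that quartile were thus both lower in starved liver, and neither passed the test.

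Slc25a3 brings in the phosphate for ATP synthesis. It read 12.68 and 12.62 in controls and 12.79 and 12.77 in starved livers, with a change of 0.13 and a 95% interval of -0.15 to 0.40. Slc25a5, the ADP/ATP carrier found in most tissues, read 13.51 and 13.43 against 13.66 and 13.68, with a change of 0.20 and an interval of -0.08 to 0.48. All 8 of its probe sets gave a higher mean in starved liver, with changes of 0.18 to 0.34, although 6 of the 8 are of the _x_at type, whose probes may also bind related transcripts. Slc25a4, the form of heart and muscle, read 6.75 and 6.30 against 6.89 and 6.66, and its groups overlapped. The summed signal of 7 muscle markers was 8.21 to 8.31 in controls and 8.16 to 8.21 in starved livers, with overlap.

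Among the carriers of di- and tricarboxylates, Slc25a10 exchanges malate or succinate for phosphate and can export malate for gluconeogenesis. It read 9.87 and 9.59 in the controls and 10.26 and 10.18 in the starved livers. Both starved arrays lay above the controls, and the change was 0.49 ± 0.14 (SE), or 1.41-fold, with a limma adjusted p = 0.291. Its second probe set did not show this, with 7.99 and 7.95 against 8.05 and 8.01, a change of 0.06. Slc25a11, the oxoglutarate carrier of the malate-aspartate shuttle, read 9.87 and 9.82 against 9.98 and 9.94. Its groups were narrow and did not overlap, with a change of 0.11 and an interval of -0.16 to 0.39. The orphan Slc25a35 read 5.15 to 5.42 on all 4 arrays, close to the lower quartile. The citrate carrier Slc25a1 and the oxoadipate carrier Slc25a21 were among 15 further carriers not analysed here.

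Several enzymes that feed or use these carriers had larger changes than the carriers of this group. Pcx, which makes oxaloacetate from pyruvate in the matrix, read 11.78 and 11.73 against 12.58 and 12.24, a change of 0.65 (limma adjusted p = 0.212). Gpt2, which makes pyruvate from alanine, read 12.38 and 12.43 against 13.31 and 13.25, a change of 0.88 (limma adjusted p = 0.0882). Acly, which splits exported citrate in the cytosol, fell by 1.55 on the log2 scale (limma adjusted p = 0.0385), from 11.98 and 11.87 to 10.46 and 10.28. It was past the limma test in 8 of 13 alternatives, with adjusted p = 0.0277 to 0.168. The call was lost after a further quantile normalization (limma adjusted p = 0.0559), with a replicate block (0.1), and without control 2 (0.07), starved 1 (0.168) or starved 2 (0.115). Of the 35 measured enzymes on either side of the carriers, 10 had an unadjusted p under 0.05 (28.6%, against 11.3% of all genes; limma). Of these, 9 were higher and 1 lower, and Acly was the 1 past the test over all genes.

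Of 7 amino acid carriers measured, 5 had a higher and 2 a lower mean, and the median change was 0.17. An unadjusted p under 0.05 was reached by 1 of them, Slc25a44 (14.3%, against 11.3% of all genes; limma), and in 4 the groups did not overlap (57.1%, against 42.2% of all genes). Slc25a13, citrin, exports aspartate to the cytosol for urea synthesis and the malate-aspartate shuttle. It read 11.86 and 11.32 in controls and 11.91 and 12.11 in starved livers. Control 1 lay just under starved 1, so the change of 0.42 ± 0.20 (SE) rests largely on control 2, and it was 0.15 without that array. Slc25a15, the ornithine carrier of the urea cycle, read 12.99 and 13.22 against 13.05 and 12.98, and its groups overlapped. Slc25a22, a glutamate carrier, read 9.82 and 10.05 against 10.30 and 10.11, without overlap and with a change of 0.27, which was 0.15 without control 1 and 0.17 without starved 1.

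Slc25a44 carries branched-chain amino acids into mitochondria. It read 8.66 and 8.68 in the controls and 8.43 and 8.17 in the starved livers, a change of -0.37 ± 0.14 (SE; limma adjusted p = 0.408), or -0.24 without starved 2 and -0.50 without starved 1. A second probe set read 8.69 and 8.63 against 8.23 and 7.99, a change of -0.55, and the last gave 0.05 with overlapping groups. Slc25a29, a carrier of basic amino acids, gave higher means in starved liver with all 5 of its probe sets, by 0.04 to 0.29, and on the probe set used its groups overlapped. Slc25a38, a glycine carrier needed for heme synthesis, read 8.64 and 8.45 against 8.70 and 8.71. Slc25a2, a second ornithine carrier, stayed between 3.92 and 4.32, below the lower quartile of every array.

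Of the urea cycle enzymes measured, Asl, which splits argininosuccinate, read 11.97 and 11.78 against 13.28 and 12.54, a change of 1.03 (limma adjusted p = 0.245). Otc, which makes citrulline in the matrix, had a change of -0.20, and Cps1, which makes its carbamoyl phosphate, of 0.14. Arg1, another enzyme of the cycle, had a change of 0.16. Otc, Cps1 and Arg1 did not reach an unadjusted p under 0.05 in limma.

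Carriers of nucleotides and cofactors included the pair Slc25a33 and Slc25a36, which carry pyrimidine nucleotides for mitochondrial DNA and RNA. Slc25a33 read 9.22 and 9.09 in the controls and 9.49 and 10.14 in the starved livers. Starved 2 was well above the other 3 arrays, and the change of 0.66 ± 0.23 (SE; 1.58-fold; limma adjusted p = 0.381) was 0.99 without starved 1 and 0.33 without starved 2. Slc25a36 read 6.88 and 6.53 against 7.19 and 6.99, without overlap and with a change of 0.39 ± 0.16 (SE), or 0.57 without control 1 and 0.21 without control 2. On the probe sets used, both pyrimidine nucleotide carriers were thus higher on every starved array than on either control array, and neither passed the test. A second probe set of Slc25a36, of low signal, read 3.55 and 3.82 against 4.01 and 3.75, with overlap.

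Slc25a26, which brings S-adenosylmethionine into mitochondria, had a negative change. It read 7.13 and 7.04 in controls and 6.60 and 6.89 in starved livers, a change of -0.34 ± 0.14 (SE), read from an _s_at probe set that may bind related transcripts. Without starved 1 the change was -0.19, and without starved 2 it was -0.48. Its second probe set gave -0.03. Mat1a, the liver enzyme that makes S-adenosylmethionine, read 13.21 and 12.68 against 14.06 and 13.81, a change of 0.99 (limma adjusted p = 0.186). The synthase and the carrier of this methyl donor thus had opposite signs on the probe sets used. Slc25a51, the NAD carrier, read 11.07 and 11.27 against 11.51 and 11.03, and Slc25a17, the peroxisomal carrier of coenzyme A and related cofactors, read 9.46 and 9.51 against 9.03 and 9.61. In both the starved arrays lay on either side of the controls. Slc25a42, the mitochondrial coenzyme A carrier, read 7.50 and 7.82 against 7.44 and 7.87, with a 95% interval of the change from -0.48 to 0.47.

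Of the carriers of iron and glutathione, Slc25a28, mitoferrin 2, read 8.58 and 8.61 in controls and 9.06 and 8.81 in starved livers. Both starved arrays lay above the controls, and the change was 0.34 ± 0.13 (SE; limma adjusted p = 0.438), or 0.47 without starved 2 and 0.21 without starved 1. Mitoferrin 1, Slc25a37, which serves red cell precursors above all, read 7.86 and 7.61 against 7.68 and 7.62, with overlap. The summed erythroid markers were 9.95 to 10.29 in controls and 9.93 to 9.95 in starved livers. Of the 5 measured, 3 lay below the lower quartile of every array. The others went opposite ways. Alas2 read 10.15 and 9.78 against 9.69 and 9.71, and Slc4a1 read 5.66 and 5.50 against 6.69 and 6.26. Slc25a39, the mitochondrial glutathione carrier, read 13.42 and 13.53 against 13.72 and 13.54. All 3 of its probe sets gave higher means in starved liver, by 0.16 to 0.23, and 2 of them are of the _x_at type. Its 95% interval ran from -0.16 to 0.47.

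**Figure D2:**
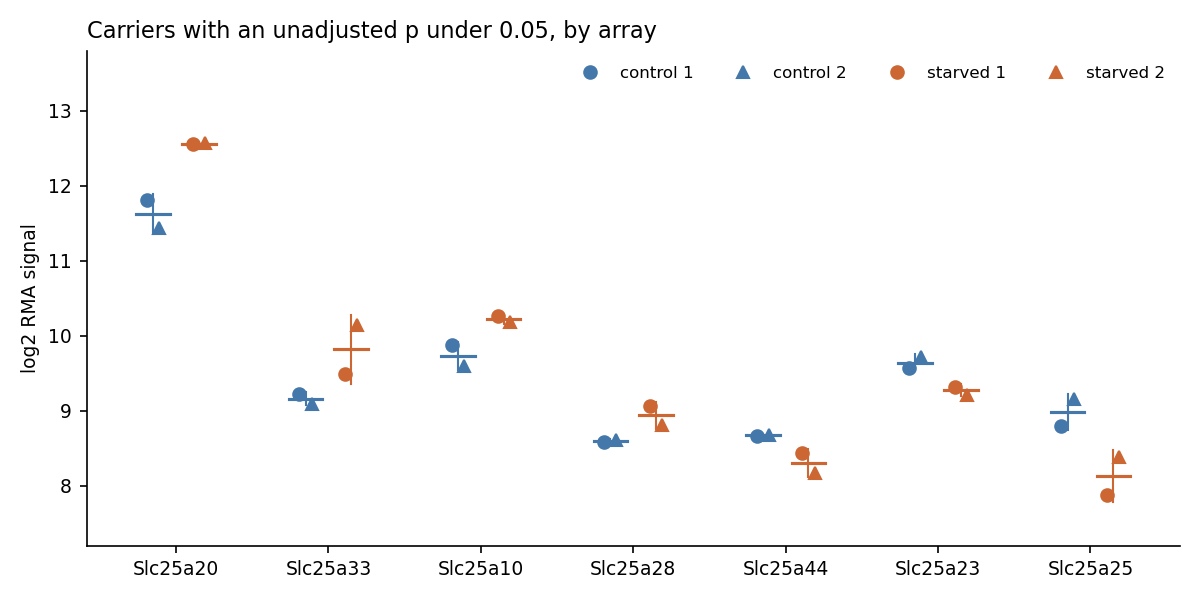
Log2 RMA signal (vertical axis) of the 7 carriers with an unadjusted p under 0.05 on each array, controls blue and starved orange, replicate 1 as circles and replicate 2 as triangles; bars give the group mean and lines the mean ± SD of 2 arrays. In each carrier the groups do not overlap, and the starved arrays of Slc25a20 (12.55 and 12.57) lie closest together.

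Slc25a30, a relative of the uncoupling proteins that is best known from kidney, stood apart by its spread between mice. It read 8.22 on control 1 and 10.07 on control 2, and 8.29 on starved 1 and 9.43 on starved 2. The mice of each group thus differed by 1.85 and 1.14, whereas the group means differed by 0.29. Only 29 of the 12393 genes (0.234%) had a larger pooled SD within groups than its 1.08, and the median over all genes was 0.13. Of its other probe sets, a _s_at probe set read 7.69 and 9.99 against 7.90 and 8.94, and another read 6.65 and 8.79 against 6.78 and 8.12. An _a_at probe set repeated the order at low signal, with 4.88 and 5.51 against 4.79 and 5.06, and the last stayed between 3.80 and 3.98. The change, -0.29 ± 0.65 (SE), was 0.63 without control 2 and -1.21 without control 1, so these arrays do not settle its sign.

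**Figure D3:**
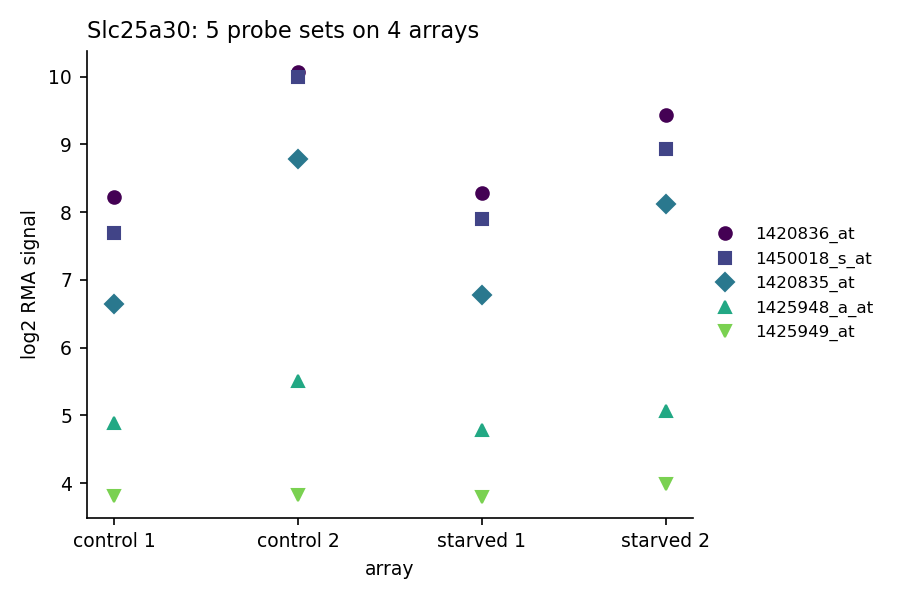
Log2 RMA signal (vertical axis) of the 5 probe sets of Slc25a30 on each of the 4 arrays (horizontal axis), 1 symbol per probe set. The 3 probe sets with the highest signal are higher on control 2 and starved 2 than on control 1 and starved 1.

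Its relative Slc25a14 read 7.29 and 7.05 in controls and 6.86 and 7.00 in starved livers. Starved 2 lay just below control 2, and the change of -0.24 had an interval of -0.58 to 0.10. Family members with other names had small changes. Ucp1, Ucp3, Mtch1 and Mtch2 had changes between -0.10 and 0.22, and 0 of these 4 had an unadjusted p under 0.05 in limma. Ucp1, the uncoupling protein of brown fat, lay at 3.84 to 4.34 on all arrays, below the lower quartile.

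Among the carriers left without a substrate here, Slc25a47, a carrier found mainly in liver, read 13.11 and 13.05 in controls and 13.09 and 13.42 in starved livers. Its groups overlapped, and its change of 0.18 came from starved 2, being 0.01 without that array. Slc25a46, an outer membrane protein of mitochondrial fusion and fission, read 10.08 and 10.17 against 10.37 and 10.42. Its second probe set gave 0.25 beside the 0.27 of the first, and the interval of the latter was -0.01 to 0.56. Slc25a45 read 9.35 and 9.83 against 9.36 and 9.15, with overlap. Slc25a48 read 6.66 and 6.84 against 6.54 and 6.43, without overlap and with a change of -0.27. Slc25a53 stayed between 5.53 and 5.72.

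Where a carrier had several probe sets, these mostly shared a sign. Of 15 such carriers, 11 had the same sign on every probe set, and Slc25a4, Slc25a17, Slc25a30 and Slc25a44 did not. The remaining 18 carriers were read from 1 probe set each.

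Beside other gene lists, the carriers had a wider range of change than the respiratory chain. Their range was narrower than that of the targets of the nuclear receptor PPAR-alpha, which binds fatty acids. Of 66 subunits of the respiratory chain and ATP synthase, 0 had an unadjusted p under 0.05 in limma, and changes ran from -0.19 to 0.30 with a median of 0.07. Of 16 enzymes of the tricarboxylic acid cycle, 3 (18.8%) had an unadjusted p under 0.05 and were higher (limma), and the median was 0.11. Over all genes 5.25% were higher at that threshold. Of 19 PPAR-alpha targets, 14 (73.7%) had an unadjusted p under 0.05 and were higher (limma), 2 passed the test over all genes, and the median was 0.87. These 2 were Ehhadh, an enzyme of peroxisomal fatty acid oxidation, with a change of 2.44, and Cyp4a14, a fatty acid hydroxylase, with 7.36 (limma adjusted p = 0.0385 each). Ehhadh was past the limma test in 9 of 13 alternatives (adjusted p = 0.00797 to 0.129) and Cyp4a14 in 7 (0.000146 to 0.177). Both calls were lost after a further quantile normalization (limma adjusted p = 0.0559 each), with a replicate block (0.1 each), without starved 1 (0.129 and 0.177) and without starved 2 (0.0698 and 0.115). The median size of change, without sign, was 0.25 for the carriers and 0.23 for the 35 enzymes on either side of them. It was 0.19 for the 15 other mitochondrial transporters described below and 0.87 for the PPAR-alpha targets. For the cycle it was 0.16, for the respiratory chain 0.09 and over all genes 0.13. Changes ran from -1.55 to 1.41 for these enzymes and from -2.07 to 0.56 for these transporters. Some genes, such as Cpt1a and Cs, stand in several of these lists. These are descriptions, and the difference between lists was not tested.

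Other transporters of the mitochondrion were also read one by one. Of 15 measured, 2 were higher and 2 lower at an unadjusted p under 0.05 in limma (26.7% together, against 11.3% of all genes). Of the 15, 0 passed the test over all genes, and the median change was 0.03. Mpc1, a subunit of the pyruvate carrier, read 11.99 and 11.86 against 12.36 and 12.61, a change of 0.56 (limma adjusted p = 0.251). Sfxn2, a sideroflexin, read 9.03 and 9.31 against 9.86 and 9.46, a change of 0.49 (limma adjusted p = 0.417). Abcb10, an inner membrane transporter linked to heme synthesis, read 9.35 and 9.10 against 8.39 and 8.56, a change of -0.75 (limma adjusted p = 0.166). Aqp8, a water channel of hepatocytes, read 10.12 and 10.20 against 7.85 and 8.34. Its change of -2.07 was larger in size than that of any Slc25 carrier, with a limma adjusted p = 0.0516. It was past the limma test in 6 of 13 alternatives, with adjusted p = 0.0356 to 0.129.

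**Figure D4:**
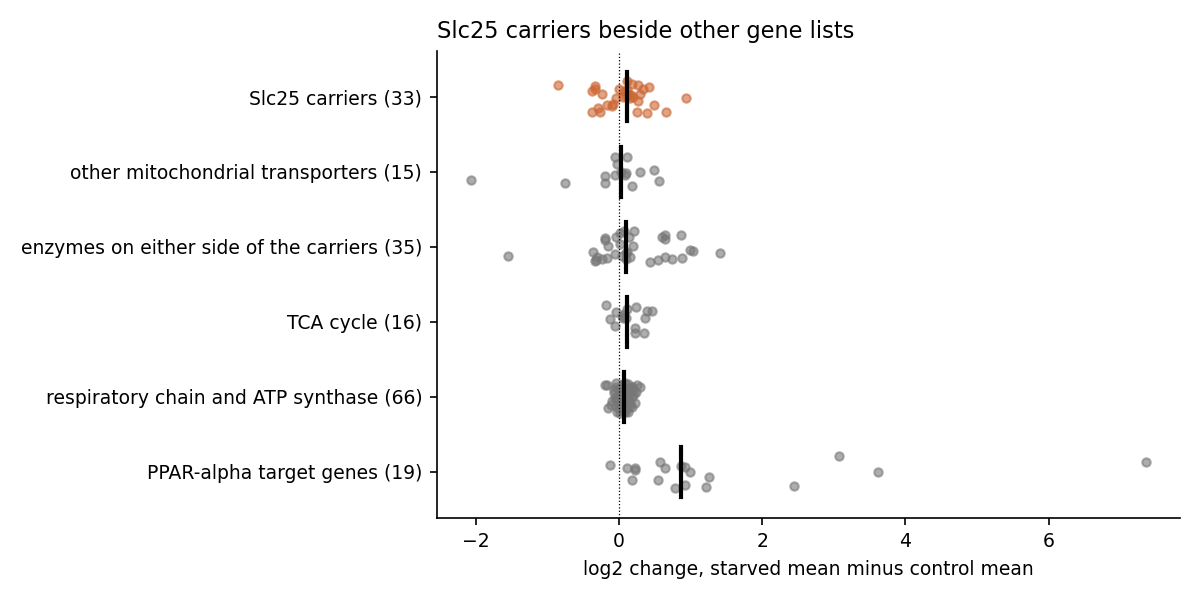
Log2 change (starved mean minus control mean, horizontal axis) of each gene in the Slc25 family and in 5 other lists, with the number of measured genes in brackets; black bars are medians and the vertical scatter within a list has no meaning. The carriers span -0.85 to 0.94 around a median of 0.11, and the PPAR-alpha targets have a median of 0.87.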

How the data were processed

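The submitters' processing notes name RMA and the affy package, and the deposited log2 signals, 1 per probe set and array, are taken as their output. The sources used here give no versions or settings. Values lay between 2.83 and 15.5 with array medians of 6.71 to 6.74. RMA gives all arrays nearly the same distribution, which hides any change shared by the whole transcriptome. No detection calls were used, and a low signal is not absence.

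Of 22690 probe sets, 64 controls, 691 with several symbols and 1555 with none were left out. For the other 20380, current symbols came from a RefSeq table of GRCm38.p6 by Entrez identifier (20351 matched). Each of 12393 genes was read from its probe set with the highest mean. Starved and control arrays were compared with limma 3.58.1 in R 4.3.3, with no covariate and with Benjamini-Hochberg adjustment across the whole gene table. The total degrees of freedom were 5.71 and the median SE was 0.133. The number of arrays limits the precision. Each p-value reflects the variation among these 4 mice alone. On simulated data with known changes, the fit recovered their sizes on average, which a difference of means does by construction. The share of false calls among those past the threshold was above the nominal level.

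Carriers were grouped by substrate from textbook knowledge. The members and lists were chosen with earlier results of these data known. Carriers are given with all array values where the unadjusted p was under 0.05, the change was 0.5 or more, or the mean was the highest of the substrate group. Further carriers are given for their role. Genes of other lists are named at an unadjusted p under 0.05, at most 6 per list. Cpt2, Asl, Otc, Cps1, Arg1, the named cell type markers and the family members under other names fall outside this rule and were chosen after their values were seen. Alternatives covered scaling, low signals, probe sets, the variance model, a replicate block and leaving out each array. Where an array was left out, its partner is taken to vary like the other group's arrays. Same-numbered arrays did not deviate together (correlation across genes 0.0171), so the numbers were not taken to pair the mice.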

Additional observations from a re-analysis of the deposited data

How the results depend on the processing

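The count of carriers past the test was 0 under the main setting and under each of the 13 alternatives, and the lowest adjusted p of any carrier was 0.0661 (limma, without control 1). All 7 carriers with an unadjusted p under 0.05 kept their direction under every alternative, and Slc25a20 and Slc25a25 kept an unadjusted p under 0.05 in all 13 (limma). With an array left out, the count at an unadjusted p under 0.05 ran from 2 to 11, with 1 to 7 higher and 1 to 4 lower. The count of carriers whose groups do not overlap ran from 24 to 29 in these fits, where fewer arrays make overlap less frequent. The share of all genes is not given here for the fits without an array, nor for the replicate block below. Without that share, the counts from these fits do not show whether the carriers differ from other genes. With the replicate number as a block the count at an unadjusted p under 0.05 was 7 and 0 carriers passed the test. These 7 were not all the same carriers. By the order of adjusted p, Slc25a36 (limma adjusted p = 0.389) entered and Slc25a28 (0.469) left.

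Of the 33 carriers, 24 kept their direction under every alternative. With an array left out, the change ran from -0.049 to 0.26 for Slc25a2, from -0.21 to 0.021 for Slc25a15, from -0.46 to 0.13 for Slc25a17, from -1.21 to 0.63 for Slc25a30, from -0.17 to 0.1 for Slc25a35, from -0.21 to 0.042 for Slc25a37, from -0.22 to 0.21 for Slc25a42, from -0.14 to 0.34 for Slc25a51 and from -0.0087 to 0.13 for Slc25a53. Slc25a42 also turned from -0.0022 to 0.00069 with arrays shifted to a common median and to 0.0042 after a further quantile normalization. The cause was not tested. Signals near the lower quartile (Slc25a2, Slc25a24, Slc25a35 and Slc25a53) limit what a change of those carriers can show.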
